A study of Mus musculus with 2 samples.

Results

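Upk1b encodes uroplakin 1b, a 4-pass membrane protein of the uroplakin family, and the cells described here are those that carried its transcripts without the genes of other Upk1b-bearing populations. A cell was counted as Upk1b-gated when it held at least 20 gene transcripts, at least 3 of Upk1b, at most 3 of Upk3a, Gabrp and Atp6v1b1 together, at most 1 of Rgs5 and at most 1 of the neuroendocrine (NE) genes Chga, Chgb, Scg5, Snap25 and Celf3 together. This gate took 868 of 493524 cells, 168 of 152915 in the RPR2 section and 700 of 340609 in the CRPR2 section. The gate carries the working name mesothelial-like, and the data went against that name for most of the cells. Only 65 of the 168 and 45 of the 700 held at least 2 transcripts of Upk3b, a uroplakin of mesothelium, so the cells are named here by their gate.

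The samples were lungs of mice with small cell lung cancer (SCLC), a neuroendocrine tumour, measured by Xenium In Situ, which counts single transcripts of a fixed gene panel in segmented cells of a tissue section. RPR2 mice carried floxed alleles of the tumour suppressor genes Rb1, Trp53 and Rbl2. CRPR2 mice lacked Cracd, a regulator of actin polymerization, in addition, and per the study's text this was a germline knockout, so that all cells of the lung lacked it and not the tumour cells alone. Both kinds received adenoviral Cre into the trachea at 10 weeks of age. The study's text names both Ad-CMV-Cre and Ad-Cracd-Cre particles, so which airway or lung cells could recombine depends on which was used. Per the study's methods mice of both sexes were used and lungs were taken at a single fixed time some months later. Which sex and how many mice stand behind a section is not given. Each genotype was 1 section, both on the same slide, so genotype, mouse, amount of tumour and section cannot be told apart, no test between genotypes was possible, and every interval below (95%) covers counting error only. The sections held 16313950 (RPR2) and 37348565 (CRPR2) transcripts of 479 panel genes, with a median of 101 per cell in each.

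Cracd and Rbl2 were not on the panel, so the label that separates the sections could not be checked. Rb1 and Trp53 were, but where their probes lie relative to the deleted exons is not given in the sources used here. Levels are given as CPM, the transcripts of a gene per 1000000 gene transcripts summed over a group of cells. Rb1 stood at 2444 and 2566 CPM in the gated cells and at 10267 and 11407 CPM in NE cells (at least 3 transcripts of the NE genes) of the RPR2 and CRPR2 sections, and Trp53 at 1201 and 2229 CPM in the gated cells and 784 and 854 CPM in NE cells.

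Mesothelium is the flat epithelium that lines the pleura and covers the lung. Its cells are known for mesothelin (Msln), the mucin Muc16 that binds mesothelin, Upk3b, keratins and complement genes. Uroplakin 1b pairs with other uroplakins in the plaques of the bladder lining and is also made by other epithelia, airway included, while alveolar fibroblasts of the lung are known for integrin alpha 8 (Itga8) and the matrix protein genes Mfap4 and Col1a1. Probe efficiency differs between genes, so levels below are compared for the same gene between groups of cells, and which gene of a list gave the most transcripts is no order of expression.

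Of the RPR2 cells 0.110% (0.0939 to 0.128) were gated, and of the CRPR2 cells 0.206% (0.191 to 0.221), a log2 ratio of 0.90 (0.66 to 1.16). That ratio depended on the denominator and on the gate. Among cells with at most 1 NE transcript, which leaves out the NE cells, the shares were 0.123% and 0.509%, a log2 ratio of 2.05 (1.80 to 2.30). With the Upk1b minimum set to 2 it was 0.44 (0.31 to 0.58), and with that minimum and every cell thinned to 50 transcripts it was -0.04 (-0.28 to 0.20), an interval that includes 0. Gated cells were deeper than the sections as a whole, with medians of 137 and 155 transcripts. They held 577 of the 5067 Upk1b transcripts of the RPR2 section (11.4%) and 2474 of the 11122 of the CRPR2 section (22.2%).

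The excluding genes acted mainly in the RPR2 section. There, 252 cells had at least 3 Upk1b transcripts and 84 of them (33.3%) were removed, 69 of these by the uroplakin and ionocyte genes Upk3a, Gabrp and Atp6v1b1. In the CRPR2 section 33 of 733 (4.50%) were removed. Most gated cells lay at the edge of the gate: Upk1b was at 3 transcripts in 118 cells (70.2%) of the RPR2 section and 458 cells (65.4%) of the CRPR2 section, and the highest counts were 9 and 8. Cells just outside, with 2 Upk1b transcripts, numbered 461 and 1206.

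The gated cells fell into subgroups by the other genes they carried, with cut-offs chosen after their values had been seen. The Upk3b subgroup had at least 2 Upk3b transcripts. Of the rest, the Krt5/Krt13 subgroup had at least 3 transcripts of Krt5, Krt13 and Col17a1, the secretory-gene subgroup at least 3 of the airway secretory list (Scgb3a1, Scgb3a2, Muc5b, Muc5ac, Reg3g, Retnla, Agr2, Tff1, Tff3), and the fibroblast-gene subgroup at least 3 of the fibroblast list (Col1a1, Itga8, Gli1, Nox4, Pi16, Dpt). A cell with both lists went to the larger, and 20 cells in all met no rule.

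In the RPR2 section 99 gated cells (58.9%, 51.1 to 66.4) were in the secretory-gene subgroup, 65 (38.7%, 31.3 to 46.5) in the Upk3b subgroup and 2 (1.19%, 0.144 to 4.23) in the fibroblast-gene subgroup. In the CRPR2 section the fibroblast-gene subgroup came first: 523 (74.7%, 71.3 to 77.9) were in it, 77 (11%, 8.78 to 13.6) in the secretory-gene subgroup, 45 (6.43%, 4.73 to 8.51) in the Upk3b subgroup and 37 (5.29%) in the Krt5/Krt13 subgroup. The last held 0 of 168 gated RPR2 cells, which by the 3-count limit allows a share of up to 1.79%. Cells with at least 3 transcripts of Krt5, Krt13 and Col17a1 that met the excluding rules (Krt5 or Krt13 cells) were also fewer in the RPR2 section, at 108 against 475. They were 0.0791% and 0.345% of cells with at most 1 NE transcript, and 26.9% and 47.4% of them held a Upk1b transcript. Just outside the gate, cells with 2 Upk1b transcripts would have been 25.4% Upk3b, 65.7% secretory-gene, 3.47% fibroblast-gene and 3.04% Krt5/Krt13 (14 cells) in the RPR2 section against 4.73%, 12%, 66.9% and 5.56% in the CRPR2 section.

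**Figure D1:**
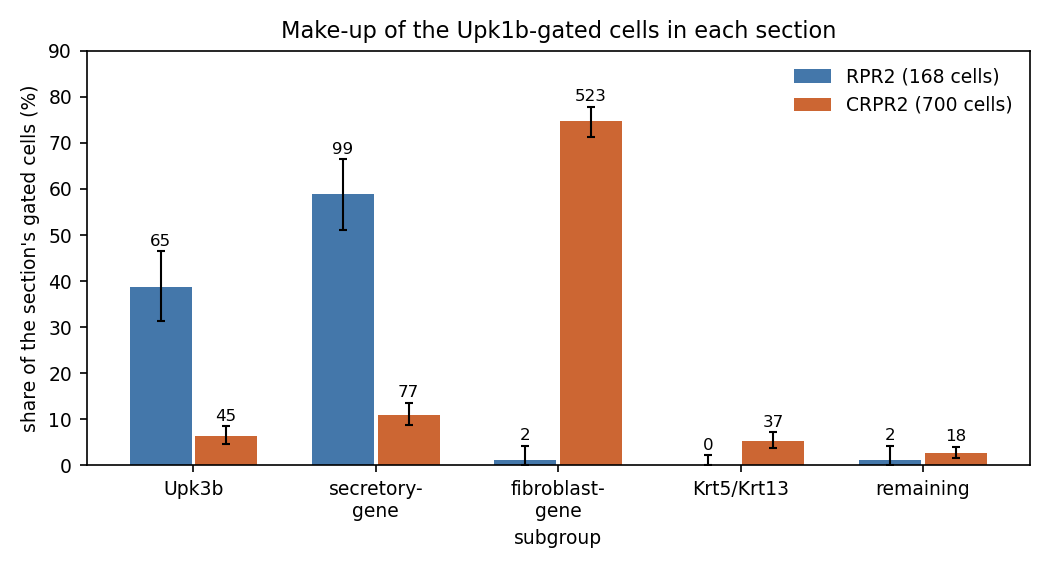
Share of each section's gated cells (vertical axis, percent) in each subgroup (horizontal axis), with 95% Clopper-Pearson intervals and the number of cells above each bar. The fibroblast-gene subgroup is 2 cells in the RPR2 section and 523 in the CRPR2 section, while the Upk3b and secretory-gene subgroups make up most of the RPR2 cells.

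The larger share of gated cells in the CRPR2 section rested on the fibroblast-gene subgroup. Without it, the gated cells were 0.109% of the RPR2 cells and 0.0520% of the CRPR2 cells, a log2 ratio of -1.06 (-1.38 to -0.75), and 0.122% and 0.129% of cells with at most 1 NE transcript, a log2 ratio of 0.08 (-0.23 to 0.40). Of the latter cells, the Upk3b subgroup was 0.0476% and 0.0327% (log2 ratio -0.54, -1.12 to 0.03) and the secretory-gene subgroup 0.0725% and 0.0560% (-0.37, -0.82 to 0.07), both intervals reaching past 0. The fibroblast-gene subgroup was 0.00147% and 0.380%, a log2 ratio of 8.02 (6.16 to 11.07).

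Over all gated cells, the defining mesothelial genes on the panel (Msln, Upk3b and Muc16) were each at least 2-fold higher than in the other cells of the section. NE cells, all outside the gate, were 9.87% of the RPR2 and 53.5% of the CRPR2 cells. Ratios to other cells, here and below, are therefore taken against unlike cells in the 2 sections. Of genes with at least 100 CPM in either group, 19.8% were at least 2-fold higher and 49.0% at least 2-fold lower in the RPR2 gated cells (69 and 171 of 349), and 23.0% and 34.3% in the CRPR2 gated cells (79 and 118 of 344). In the RPR2 section the widest ratios beside Upk1b, which the gate set, were of Muc16 (9347 against 99.8 CPM, log2 6.55, 6.34 to 6.75), Upk3b (28641 against 377 CPM, 6.25) and Msln (20066 against 584 CPM, 5.10). They were followed by Tat, an amino acid transaminase, at 13 transcripts, and by Fxyd3, Agr2, Reg3g, Ecrg4, Aadat, Colec11, Aqp4, Oit1, Scgb3a1 and Tff2, among them several genes of airway secretory cells. Ecrg4 rested on 13, Colec11 on 8 and Aadat on 4 transcripts in the gated cells.

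In the CRPR2 section the widest ratio beside Upk1b was of Upk3b (3128 against 74.2 CPM, log2 5.40), followed by the squamous and basal keratin and junction genes Krt13 (4.90), Col17a1 (4.40) and Krt5 (4.25), by Muc16 (1530 against 76.8 CPM, 4.32) and by Itga8 (19555 against 1210 CPM, 4.01). Msln stood at 2999 against 343 CPM (3.13, 2.97 to 3.28), with Aqp3, Snai2, Pcolce2, Reg3g, Mfap4, Mamdc2 and Nox4 beside it. These levels averaged over unlike cells: Msln and Muc16 were both at 0 in 519 of the 523 fibroblast-gene CRPR2 cells and in 61 of the 99 secretory-gene RPR2 cells. By transcripts counted, which also follow probe efficiency, Scgb3a2, Upk3b, C3, Krt19, Krt8, Upk1b, Anxa2, Igfbp6, Cav1 and Msln led in the RPR2 gated cells, and Mfap4, Bgn, Cp, Upk1b, Col1a1, Itga8, Selenbp1, Anxa2, Pcolce2 and Timp3 in the CRPR2 gated cells.

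The whole defining list summed to 58054 CPM (1354 transcripts) in the RPR2 gated cells and 7656 CPM (886 transcripts) in the CRPR2 gated cells, with Upk3b giving the most transcripts in each. The fibroblast list summed to 7803 CPM (182 transcripts) and 55667 CPM (6442 transcripts), with Col1a1 giving the most transcripts. The secretory list summed to 93084 and 29000 CPM, with Scgb3a2 giving the most transcripts, and the ciliated list (Foxj1, Ccdc153, Tmem212, Dynlrb2) to 44634 and 11994 CPM. Between the sections, 38.4% of 320 genes were at least 2-fold higher in the CRPR2 gated cells and 27.5% at least 2-fold lower. The fibroblast list had 3 of 6 genes in the first group and 1 in the second, and the defining mesothelial list had 0 of 3 and 3 of 3, which is what the subgroup counts set.

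The widest ratios towards CRPR2 were of Cybb, a subunit of the phagocyte oxidase (1 and 232 transcripts, log2 5.55), Gap43, Snai1, Gm13889, Tagln, Mfap4 (2358 and 38670 CPM, 4.04), Gng11, Snai2, Nox4 and Itga8 (1801 and 19555 CPM, 3.44). Those towards RPR2 were of Tat, Aadat, Gm9573, Atp6v1b1 (itself held down by the gate), Aplp1, Scin, Upk3b (28641 and 3128 CPM, -3.19), Wif1, Dcdc2a and Calb1. Of these, Aadat, Gm9573, Scin and Calb1 rested on at most 6 transcripts in either section.

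**Figure D2:**
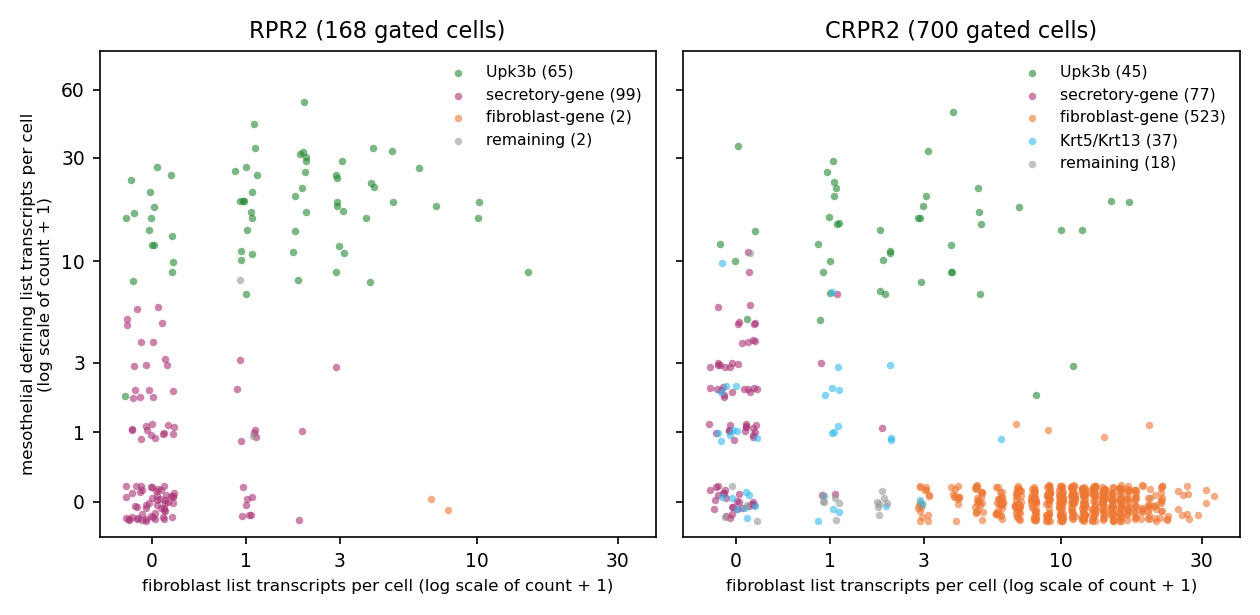
Transcripts of the fibroblast list (horizontal axis) and of the defining mesothelial list (vertical axis) in each gated cell, both on a log scale of the count plus 1 with a small random shift, coloured by subgroup. The Upk3b cells lie at 2 to 53 mesothelial transcripts in RPR2 and 2 to 48 in CRPR2, and the 523 fibroblast-gene cells of CRPR2 lie at 0 or 1.

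The Upk3b subgroup carried Msln and Muc16 in both sections. Msln was present in 64 of its 65 RPR2 cells and 41 of its 45 CRPR2 cells, and Muc16 in 59 and 31. Upk3b, which chose the cells, had a median of 9 and 8 transcripts, and the ciliated list was at 0 in 62 of the 65 and in all 45. Its share of cells with an Msln transcript stayed high at equal depth: after thinning to 50 transcripts it was 90.6% (80.7 to 96.5) and 74.4% (58.8 to 86.5), against 1.94% and 1.22% of the cells outside the gate.

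Msln stood at 46119 CPM in the RPR2 and 46798 CPM in the CRPR2 Upk3b subgroup, log2 ratios over the cells outside the gate of 6.30 (6.15 to 6.45) and 7.09 (6.90 to 7.27). The levels in the subgroup were near equal, so these ratios differ by the cells they are taken against. Muc16 stood at 24367 and 13831 CPM. Upk3b itself chose this subgroup and is given as a description, at 79282 and 68587 CPM. Of 356 RPR2 genes, 14.3% were at least 2-fold higher in the subgroup and 61.0% at least 2-fold lower; of 353 CRPR2 genes, 21.8% and 53.8%.

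Of the genes mesothelium shares with other tissues, 3 of 4 were at least 2-fold higher in each section. C3, the central complement protein, stood at 62403 CPM in the RPR2 subgroup against 7529 in other cells (log2 3.05) and at 84312 against 5278 in the CRPR2 section. Cav1, the coat protein of caveolae, stood at 54558 and 52671 CPM. Krt8 was not at that fold in either direction in the RPR2 subgroup (7607 against 8957 CPM) and was lower in the CRPR2 subgroup (9284 against 20751 CPM). Of the general epithelial list, 0 of 8 genes were higher and 7 of 8 lower in each section, with Cldn3, Cldn4 and Cldn7 at 0 transcripts in both.

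Beside the lists, Igfbp6, a binding protein of insulin-like growth factors, stood at 56223 against 3877 CPM (RPR2, log2 3.86) and 37893 against 769 CPM (CRPR2, 5.62). The scavenger receptor Lrp2 stood at 9628 against 889.6 and 6442 against 945 CPM, the secreted matrix protein Ccdc80 at 6656 against 897 and 13831 against 982 CPM, and the Wnt inhibitor Sfrp1 at 6894 against 1188 and 5684 against 699.5 CPM. Aqp1, a water channel, stood at 59303 against 5771 CPM in the CRPR2 section (3.36) and 52419 against 16166 CPM in the RPR2 section.

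Between the Upk3b subgroups of the sections Msln differed by a log2 ratio of 0.02 (-0.21 to 0.25). Upk3b, which chose the cells (-0.21, -0.40 to -0.02), Muc16 (-0.82, -1.22 to -0.42), Krt19 (29835 and 13831 CPM, -1.11) and Igfbp6 (-0.57) were lower in CRPR2. Of 317 genes, 28.7% were at least 2-fold higher in CRPR2 and 23.3% lower, but with 5278 transcripts in the CRPR2 subgroup only 13 and 8 of them had an interval that excluded 0. Among those higher were Col1a1 (50 and 91 transcripts, 1.54, 1.02 to 2.06), the macrophage gene Mpeg1 (3 and 13 transcripts), Ctss (12 and 25), the Hedgehog receptor Ptch1 (15 and 25), Cp, the copper carrier ceruloplasmin (27 and 44), and Ccdc80 (1.06, 0.53 to 1.58). Of the fibroblast list 1 of 6 genes was higher and 1 lower, and its summed level was 17235 and 30125 CPM; 21 cells of the subgroup in each section held at least 3 of its transcripts.

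The Upk3b subgroup was a small part of all cells with Upk3b. Cells with at least 2 Upk3b transcripts that met the excluding rules numbered 1184 in the RPR2 and 520 in the CRPR2 section, and 5.49% and 8.65% of them were Upk1b-gated. Upk1b was nonetheless frequent in them: 39.1% (36.3 to 42.0) and 50.4% (46.0 to 54.8) held a Upk1b transcript. Compared with Upk3b cells outside the gate, which were shallower (medians of 88.0 and 93.0 transcripts against 127 and 113), the gated Upk3b cells of the RPR2 section had more Anxa8 (1.76, 1.28 to 2.23; 0.12, -0.49 to 0.68 in CRPR2), Prss23 (1.25), Lrp2 (1.21), Muc16 (1.18, 0.96 to 1.40) and Krt19 (0.97), with 15.1% of 311 genes at least 2-fold higher (47, of which 16 had intervals above 0) and 36.7% lower (114, 58 with intervals below 0). In the CRPR2 section the ratios were 1.74 for Ldhb (0.26, -0.38 to 0.84 in RPR2), 0.91 for Prss23, 0.87 for Lrp2, 0.77 for Aqp1 and 0.68 (0.30 to 1.04) for Muc16, with 12.6% of 317 genes higher (40, 6 with intervals above 0) and 37.5% lower (119, 45 with intervals below 0).

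The secretory-gene subgroup was the largest of the RPR2 gated cells, with 99 cells and 77 in the CRPR2 section. Many of its cells carried cilia genes together with secretory genes: 77 of the 99 and 65 of the 77 held at least 3 transcripts of the ciliated list, with a median of 10.0 and 15.0. Cells were outlined by expanding nuclei and no doublet caller was run. How far transcripts of neighbouring cells account for this mixture was not tested. All 4 ciliated genes were at least 2-fold higher than in other cells in each section, with Ccdc153, a gene of motile cilia, at 19120 and 21608 CPM. Of 345 RPR2 genes 20.0% were at least 2-fold higher and 55.4% lower, and of 350 CRPR2 genes 20.3% and 61.4%.

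Secretory genes chose these cells and are given as levels. Scgb3a2, a secretoglobin of the airways, stood at 66369 and 43151 CPM, the antimicrobial lectin Reg3g at 28267 and 36532 CPM and the gel-forming mucin Muc5b at 14030 and 14146 CPM. Of genes outside that list, the membrane mucin Muc4 stood at 21458 against 1912 CPM in other cells of the RPR2 section and 28940 against 3387 CPM in the CRPR2 section, and the trefoil peptide Tff2 at 12930 against 1135 and 14211 against 558 CPM. Cells with Upk3b had been set apart before. Msln was present in 37 of the 99 and 30 of the 77 cells at 5296 and 4023 CPM, a log2 ratio between sections of -0.40 (-0.90 to 0.10).

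Muc16 was more frequent in the secretory-gene cells of the CRPR2 section. It was present in 4 of the 99 RPR2 cells (8 transcripts) and in 38 of the 77 CRPR2 cells (80 transcripts), 550.2 against 5191 CPM, a log2 ratio of 3.24 (2.19 to 4.50). With every cell thinned to 50 transcripts, Muc16 was found in 3.03% (0.629 to 8.60) and 22.1% (13.4 to 33). Also higher in CRPR2 were the phosphate transporter Slc34a2 (1926 and 7332 CPM, 1.93, 1.32 to 2.58), the glycoprotein Gp2 (2751 and 9733 CPM, 1.82) and Fxyd4 (2 and 36 transcripts). Pnmal2 was lower (32 and 1 transcripts). Of 282 genes, 23.4% were at least 2-fold higher and 25.2% lower, and 22 and 24 of these had intervals that excluded 0.

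The Krt5/Krt13 subgroup, 37 gated cells of the CRPR2 section, combined the genes that chose it with airway genes. Krt5, a basal keratin, stood at 21529 against 78.8 CPM, Krt13, a keratin of stratified epithelia, at 10901 against 27.4 CPM, and Col17a1, a hemidesmosome collagen, at 8039 against 49.5 CPM. Among genes the choice did not use, the water and glycerol channel Aqp3 stood at 13898 against 92.3 CPM (log2 7.23, 6.94 to 7.52), Muc16 at 3270 against 76.8 CPM (5.41), Reg3g at 26843 against 672 CPM (5.32) and Tff2 at 15533 against 558 CPM (4.80). Of 356 genes 20.8% were at least 2-fold higher and 50.8% lower. Msln was present in 14 cells and Muc16 in 16, and all 4 ciliated genes were at least 2-fold higher. Whether transcripts of neighbouring cells contribute to this mixture was not tested either.

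The fibroblast-gene subgroup of the CRPR2 section had almost no transcripts of Msln and Muc16. Cells with at least 2 Upk3b transcripts had been set apart before, so its low Upk3b is no result. Among its 523 cells Muc16 was at 0 and Msln was present in 4, for 47.2 CPM against 343 in the cells outside the gate (log2 -2.86, -4.74 to -1.50). Itga8 was present in 506 of the 523 and at 3 or more transcripts in 382. Genes of the general epithelial list (8 of 8, such as Epcam at 1098 against 19521 CPM) and of the ciliated list (4 of 4) were at least 2-fold lower, in cells from which those with more secretory than fibroblast transcripts had been set apart, against 46.6% of the 337 genes compared (157) and 18.4% at least 2-fold higher (62).

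The fibroblast list chose these cells. Of its genes other than Dpt, Itga8 stood at 26293 CPM against 1210 outside the gate and Col1a1 at 26955 against 5112. Nox4 stood at 17576 against 1587 and Gli1 at 744 against 221, while Pi16, a gene of adventitial fibroblasts, was lower (106 against 849 CPM, log2 -3.00). Among genes outside that list, Mfap4, a microfibril protein of the elastic matrix, stood at 51440 against 3948 CPM (3.70, 3.66 to 3.75), Pcolce2, which enhances procollagen processing, at 22206 against 1664 CPM (3.74), Mamdc2 at 15119 against 1244 CPM (3.60), the extracellular superoxide dismutase Sod3 at 16064 against 1611 CPM (3.32) and the proteinase inhibitor Serpina3n at 10867 against 1328 CPM (3.03).

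Of the invasion list (Snai1, Snai2, Twist1, Mmp2, Cd44, Thbs1) Twist1 was under 100 CPM in both groups; of the other 5 genes, 3 were at least 2-fold higher and 0 lower, beside 18.4% and 46.6% of all genes compared. The 3 were the transcription factors Snai2 (5185 against 377 CPM, 3.78) and Snai1 (4961 against 668 CPM, 2.89) and the matrix metalloproteinase Mmp2 (13808 against 1307 CPM, 3.40). Of 16 signalling target genes 6 were higher and 2 lower; Gli1 (1.75) is among the 6 but is also on the list that chose the cells. Among the others higher were Ccn2 (8103 against 1948 CPM, 2.06) and Ccn1 (4642 against 1487 CPM, 1.64) of the Hippo and TGF-beta pathways. So were the Hedgehog receptor and target Ptch1 (1.09) and the transcription factor gene Tbx3 (1.21). Hes1, a Notch target, was among the lower (1039 against 2380 CPM, -1.19). The cells outside the gate included the NE cells, 53.5% of all CRPR2 cells, so these ratios also set fibroblast-gene cells against tumour cells. The endothelial list summed to 23470 against 15601 CPM and the alveolar type 2 list to 48133 against 35800 CPM, with 1 of 6 and 0 of 4 genes at least 2-fold higher.

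**Figure D3:**
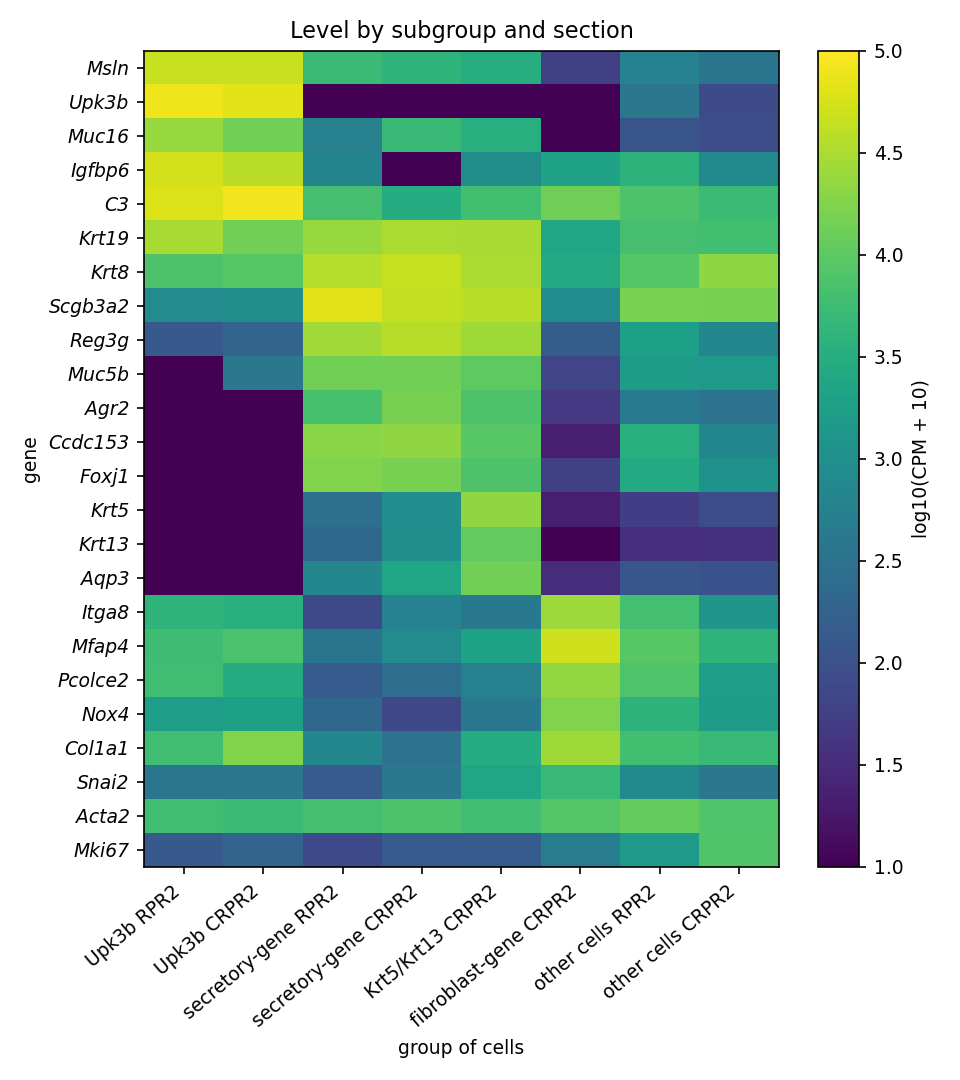
Level of 24 genes (rows, chosen after their values were seen) in the subgroups of gated cells and in the cells outside the gate of each section (columns), as log10 of CPM plus 10. The mesothelial genes at the top are high in the Upk3b columns, Scgb3a2 to Foxj1 in the secretory-gene columns and Itga8 to Col1a1 in the fibroblast-gene column.

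Compared with the Itga8 cells that the gate left out (at least 3 Itga8 transcripts, the same exclusions, 4221 cells of the CRPR2 section), the fibroblast-gene subgroup had more genes at a lower than at a higher level. The cells left out included 946 with 1 and 469 with 2 Upk1b transcripts. At the 2-fold mark, and apart from the genes of the gate, 0 of 289 genes (0%) were higher and 49 (17.0%) lower. Of the mural list on the panel, apart from Rgs5 of the gate, 3 of 3 genes were lower: the smooth muscle myosin Myh11 (803 against 8949 CPM, -3.48), the intermediate filament gene Des (-1.68) and the smooth muscle actin Acta2 (8634 against 22919 CPM, -1.41). Also lower, and named after their values were seen, were Cnn1 (94.5 against 5539 CPM, -5.87), Myl9 (-3.05), Tagln (3886 against 14012 CPM, -1.85), Pi16 at 106 against 1320 CPM (-3.63), Aspn at 366 against 2716 CPM (-2.89) and Lum at 11.8 against 524 CPM.

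Itga8 itself (-0.06) and Col1a1 (-0.06) were near equal in this comparison. Both are on the list that chose the subgroup, as is Nox4 below, and Itga8 also chose the cells compared with it. The ratios of these genes are given as a description. Below the 2-fold mark, Snai2 (0.94, 0.79 to 1.09), Selenbp1 (0.64), Mfap4 (33579 and 51440 CPM, 0.62), the angiogenic factor Vegfa (12577 and 18497 CPM, 0.56), Mmp2 (0.46) and Nox4 (0.43) were higher in the gated cells with intervals above 0. The proliferation gene Mki67 was lower (484 against 1180 CPM, -1.29, -1.78 to -0.83).

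Because the gate used Upk1b, its level between sections was read in cells defined without it. In Upk3b cells Upk1b stood at 6559 CPM (6100 to 7043) in the RPR2 section and 8210 CPM (7458 to 9017) in the CRPR2 section (log2 0.32, 0.15 to 0.50). In secretory cells (at least 8 transcripts of that list) it stood at 1405 and 1059 CPM (-0.41), in ciliated cells (at least 8) at 1207 and 1424 CPM (0.24) and in Krt5 or Krt13 cells at 2997 and 5411 CPM (0.85, 0.40 to 1.34). Over all cells it stood at 311 and 298 CPM. Each of these pairs lay within 2-fold. The all-cell pair mixes unlike sets of cells: NE cells, with Upk1b at 273 and 26.5 CPM, were 9.87% of the RPR2 and 53.5% of the CRPR2 cells. Of 289 genes compared between the Upk3b cells of the sections, 17.6% were at least 2-fold higher in CRPR2 and 8.65% lower.

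In Itga8 cells the sections were far apart. Upk1b stood at 76.7 CPM (64.1 to 91.2; 129 transcripts in 13050 cells) in the RPR2 section and at 4665 CPM (4506 to 4828; 3266 transcripts in 4606 cells) in the CRPR2 section, 60.8-fold higher (51.0 to 73.1). A Upk1b transcript was found in 0.766% and 39.1% of the cells, and in 0.414% and 20.1% after thinning to 50 transcripts. For comparison, of 288 other genes compared between the Itga8 cells of the sections 16.7% were at least 2-fold higher in CRPR2 and 4.51% lower. Among those the widest ratios were of the proliferation genes Top2a (log2 2.84, 2.60 to 3.08) and Cenpf (2.82), against 5.93 for Upk1b. This comparison and its other definitions of the cells were added after the data were seen; the latter gave 35.6-fold for at least 2 Itga8 transcripts, 118-fold for at least 5, 32.6-fold for at least 3 Mfap4, 14.3-fold for at least 3 Col1a1 and 54.8-fold for Itga8 cells with no alveolar type 2 transcript.

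**Figure D4:**
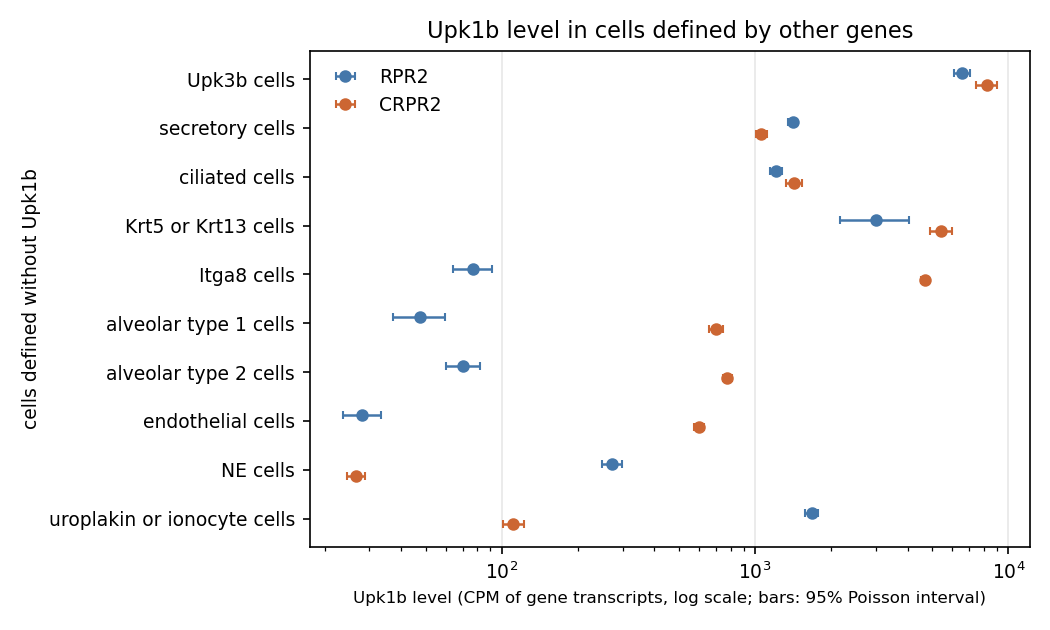
Upk1b level (horizontal axis, CPM on a log scale, with 95% Poisson intervals) in cells defined by genes other than Upk1b (vertical axis), for each section. The sections lie within 2-fold of each other in Upk3b, secretory, ciliated and Krt5 or Krt13 cells and 60.8-fold apart in Itga8 cells.

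Upk1b was higher in cells with more Itga8 in the CRPR2 section and not in the RPR2 section. Among cells that met the exclusions, Upk1b in the CRPR2 section stood at 382 CPM with 0 Itga8 transcripts, 984 with 1, 2040 with 2, 3241 with 3, 5714 with 5 and 7675 with 8 or more. In the RPR2 section it stood at 341 CPM with 0 Itga8 transcripts, 116 with 1 and 30.9 (11.4 to 67.3) with 8 or more.

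**Figure D5:**
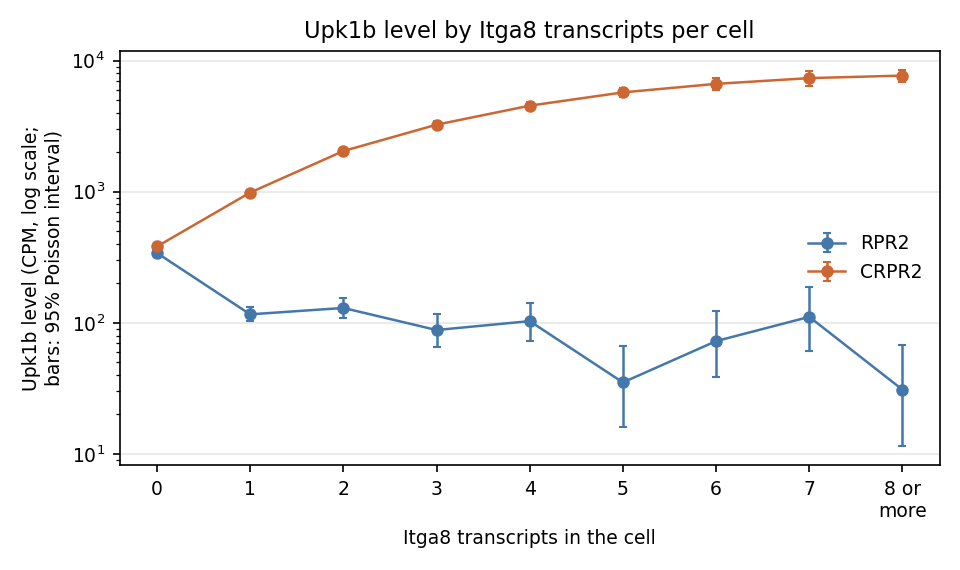
Upk1b level (vertical axis, CPM on a log scale, with 95% Poisson intervals) by the number of Itga8 transcripts in the cell (horizontal axis), among cells that met the excluding rules. The level goes from 382 to 7675 CPM in the CRPR2 section and from 341 to 30.9 CPM in the RPR2 section.

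Not all Itga8 cells of the CRPR2 section held Upk1b, and those that did differed from those that did not. From the 2806 with 0 to the 385 with 3 or more Upk1b transcripts, Mfap4 went from 28111 to 54425 CPM, Pcolce2 from 11108 to 23871, Snai2 from 1800 to 5430 and Vegfa from 10307 to 19307. Acta2 went from 30504 to 8323 CPM, the Hedgehog target Gli1 from 1425 to 526 and Mki67 from 1370 to 464. Ccn2 went from 11593 to 7875 CPM and Ccn1 from 6034 to 4796, so both were lower in the cells with Upk1b. Itga8 (26373 and 31560 CPM) and Col1a1 (28802 and 27538 CPM) differed less than Acta2, Gli1 and Mki67. The 12950 RPR2 Itga8 cells without Upk1b stood at 29599 CPM for Mfap4, 24604 for Pcolce2, 3441 for Snai2, 15961 for Vegfa, 17381 for Acta2 and 182 for Mki67. RPR2 Itga8 cells with 1 or 2 Upk1b transcripts (80 and 15 cells) carried mesothelial genes, with Msln at 10294 and 17461 CPM and Upk3b at 13861 and 23596. In the CRPR2 section such cells stood at 274 and 214 CPM for Msln and 329.8 and 174 for Upk3b. In the RPR2 section only 5 of 13050 Itga8 cells were at 3 or more Upk1b transcripts. Of these, 3 were in the Upk3b subgroup and 2 in the fibroblast-gene subgroup, and the latter 2 held no transcript of the defining mesothelial genes.

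Upk1b was also higher in other cells of the CRPR2 section: 47.5 and 701 CPM in alveolar type 1 cells, 70.3 and 775 CPM in alveolar type 2 cells and 28.1 and 601 CPM in endothelial cells (cells with many transcripts of those lists). Fibroblast transcripts moved with it there. In CRPR2 alveolar type 2 cells Upk1b stood at 295 CPM (265 to 327) where the fibroblast list was at 0 and at 1882 CPM (1791 to 1977) where it was at 3 or more, in alveolar type 1 cells at 237 and 1731 CPM and in endothelial cells at 280.2 and 1147 CPM. In the same RPR2 cells it stood at 77.2 and 55.0, 42.9 and 47.8, and 24.7 and 43.3 CPM. In CRPR2 Upk3b cells the corresponding values were 8321 and 7822 CPM. Secretory cells went the other way, at 1129 and 785 CPM in the CRPR2 section and 1655 and 441 CPM in the RPR2 section. Cells were outlined by expanding nuclei, and how far transcripts of neighbouring cells account for these values was not tested.

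In the opposite direction, Upk1b was lower in the CRPR2 section in cells that the gate left out, at 273 and 26.5 CPM in NE cells and 1672 and 111 CPM in cells with at least 4 transcripts of Upk3a, Gabrp and Atp6v1b1. Proliferation genes were found in few gated cells, from which the gate had removed NE cells. A transcript of Mki67 or Top2a was found after thinning in 2 of 166 RPR2 and 25 of 697 CRPR2 gated cells, 1.2% (0.146 to 4.28) and 3.59% (2.33 to 5.25), against 2.18% and 16.2% of the other cells with at most 1 NE transcript. The interval of the log2 ratio between the sections included 0 (1.57, -0.43 to 4.70), but it depended on the setting: it was 0.25 to 3.22 with no thinning (1.55), 0.48 to 3.83 with the cycling gene Pclaf added (1.91), 0.55 to 2.61 at 2 or more Upk1b transcripts (1.5) and -1.09 to 1.31 with no exclusion (0.04).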

How the data were processed

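Xenium In Situ cell-by-gene matrices of 2 sections were used. The authors outlined cells by nuclear expansion within the Xenium platform and deposited transcript counts per cell, not normalized. The submitters' processing notes name Seurat 4.4.0. No annotation or position of cells was used here. Cells under 20 gene transcripts were left out (1903 RPR2, 2236 CRPR2), no doublet caller was run, and 8 barcodes occurred in both sections, none among gated cells. Deposited counts were summed over cells and scaled to CPM. The 20 negative control probes averaged 2.75 and 2.29 CPM (highest 9.93 and 8.43), with 3 and 12 of their transcripts in gated cells. Intervals are 95% Clopper-Pearson for shares, Poisson for levels and exact conditional for ratios. Thinned shares drew 50 transcripts per cell.

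A gene was compared if it reached 100 CPM in either group and called at 2-fold; counts left out the 10 genes of the gate. Genes named over all gated cells were those of the lists, the 10 highest, the 15 with the widest ratio to other cells and the 10 widest between sections each way, a section at 0 being ranked at 3 transcripts. Subgroup genes are among the widest with at least 10 transcripts or were chosen after their values were seen. The members and lists were chosen with earlier results of these data known. The steps were tested on simulated data. Python 3.11.15, numpy 2.4.6, scipy 1.17.1 and pandas 2.3.3 were used.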

Additional observations from a re-analysis of the deposited data

How the results depend on the processing

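No paired analysis was possible because each genotype was 1 section and the labels give no replicate numbers. Of 88 values recomputed under the alternatives listed at the start, 70 stayed within their interval or 1.5 times the count, 17 moved and 1 turned; of 13 under alternatives added after the data were seen, 7 stayed, 5 moved and 1 turned. The log2 ratio of the share of gated cells, CRPR2 over RPR2 (0.90), was 0.44 at 2 or more Upk1b transcripts, 1.35 at 5 or more, 0.39 with no exclusion, 1.5 with 0 transcripts of every excluded gene, 2.05 among cells with at most 1 NE transcript, -0.04 on cells thinned to 50 with 2 or more Upk1b transcripts and -1.06 without the fibroblast-gene subgroup; that last change follows from how the subgroup was built, and the cause of the others was not tested. Genes at least 2-fold higher in the RPR2 gated cells went from 69 to 45 at 5 or more Upk1b transcripts. There 15 cells were left, 11 of them in the Upk3b subgroup, and the cause of this change was not tested. Genes higher in the CRPR2 than the RPR2 gated cells went from 123 to 206 with no minimum level, where more genes are compared. The log2 ratio of Upk1b in Itga8 cells (5.93) was 5.15 and 6.88 at 2 and 5 or more Itga8 transcripts, 5.03 and 3.84 with Mfap4 or Col1a1 in place of Itga8, and 5.60 as a share after thinning to 50. Leaving out a section was not possible with 1 per genotype. Depth limits the Upk3b subgroup (8413 and 5278 transcripts), where most 2-fold differences between sections had intervals that include 0.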
